A study of Mus musculus with 20 samples.

Results

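Dppa2, Dppa4, Dppa3, Dppa5a, Utf1 and L1td1 are 6 mouse genes known for their expression in pluripotent cells and the early germ line. They were taken by symbol, all 6 of the 6 listed were found, and they stand among 22332 genes with a value in at least 1 chromatin RNA file. The data come from C57BL/6 mouse embryonic stem cells (ESCs) and from cultures labelled as cardiomyocytes (CM), which were made from such ESCs by way of embryoid bodies. Both cell types were either Mettl3-KO (KO) or wild type (WT), which gives the groups CM KO, CM WT, ESC KO and ESC WT. Mettl3 encodes the catalytic subunit of the enzyme that writes N6-methyladenosine (m6A) on nascent RNA. ATAC-seq, which marks open chromatin by transposase insertion, had 3 libraries per group. ChrRNA-seq, which measures RNA held on chromatin, and Chrm6A-seq, in which antibodies against m6A select fragments of that RNA, had 1 library per group. The allele, the deleted part of Mettl3 and the number of clones are likewise not given in the sources used here.

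As background, DPPA2 and DPPA4 are SAP-domain proteins that bind chromatin as a pair, and they are needed in mouse ESCs for keeping a set of CpG-rich developmental promoters free of DNA methylation. DPPA3, also called STELLA, is a maternal-effect protein that keeps UHRF1 from recruiting DNA methylation in oocytes, and its level differs between single ESCs. DPPA5A is a KH-domain RNA-binding protein, UTF1 is a chromatin-bound factor of ESCs that shares many targets with Polycomb, and L1TD1 is an RNA-binding protein derived from the first open reading frame of a LINE-1 element. Transcripts of these genes are commonly used as readouts of the pluripotent state, which is lost on differentiation.

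The chromatin RNA libraries held an estimated 29800000 reads in CM KO, 29400000 in CM WT, 28100000 in ESC KO and 27900000 in ESC WT. Levels are given as RPKM, a read count divided by gene length and library size, and can be compared between genes per length. Markers were checked by their summed RPKM. ESC markers summed to 13.1 in CM KO, 8.08 in CM WT, 60.5 in ESC KO and 64.9 in ESC WT. Cardiomyocyte markers summed to 0.626 in CM KO, 7.75 in CM WT, 0.718 in ESC KO and 0.928 in ESC WT. Of the 8 cardiomyocyte markers, 0 reached 1 RPKM in CM KO and 4 did in CM WT, with Tnnt2, a sarcomere gene, at 0.103 RPKM in CM KO and 0.742 RPKM in CM WT. The CM KO library thus carried its cardiomyocyte label with no defining marker at 1 RPKM. Blood markers summed to 45.1 in CM KO and 40.7 in CM WT, and fibroblast markers to 8.42 in CM KO and 28.5 in CM WT, so markers of other cell types were measured in both CM libraries. Mettl3 itself was at 1.07 RPKM in CM KO, 1.18 in CM WT, 1.28 in ESC KO and 1.73 in ESC WT, which does not check the genotype labels where the deleted part is unknown. In bulk RNA, fewer cells of a type and less RNA per cell cannot be told apart.

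In chromatin RNA, the 5 genes of the set that reached 1 RPKM were each lower in CM WT than in ESC WT by more than 2-fold, where 6.50% of all genes so filtered were. As plain ratios of RPKM, Dppa2 and Dppa4, neighbours on chromosome 16, were lowest relative to their ESC level there, followed by Dppa5a, L1td1 and Utf1. On the log2(RPKM + 1) scale used for the calls, Dppa5a was lowest, then came Dppa4 at -2.04, L1td1 at -1.86, Dppa2 at -1.68 and Utf1 at -1.41. Dppa3 was under 1 RPKM in every library and was not listed in CM WT. In CM KO against ESC KO it was 4 of 5 genes, with Utf1 between the thresholds, where 3.67% of genes were at least 2-fold lower. KO and WT differed by less than 2-fold on the log2 scale used here in both cell types for every gene of the set that passed the filter; between 0.649% and 2.11% of all genes were past it, depending on cell type and direction.

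**Figure D1:**
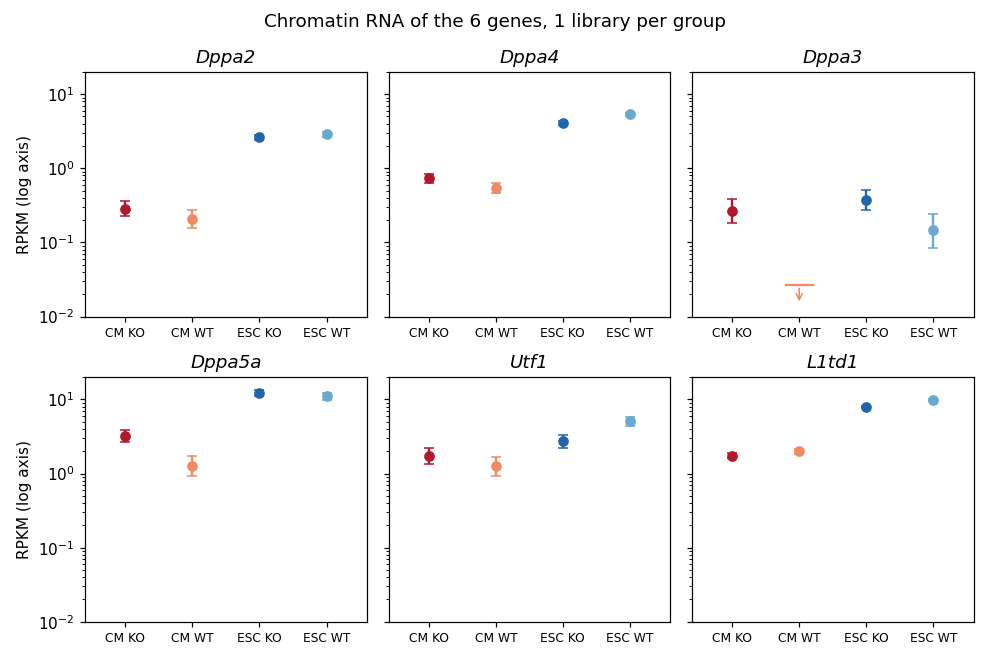
RPKM (log axis) of each gene in the 1 chromatin RNA library of each group. Points are values, bars are 95% exact Poisson intervals on estimated reads, and the arrow marks the RPKM of 3 reads where a gene was not listed. Dppa2, Dppa4, Dppa5a and L1td1 were higher in both ESC libraries than in both CM libraries, and Dppa3 stayed below 1 RPKM throughout.

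Dppa2 (ENSMUSG00000072419, mm10 chr16:48310274-48319513) was at 0.286 RPKM in CM KO, 0.210 in CM WT, 2.63 in ESC KO and 2.87 in ESC WT. Both ESC libraries were high and both CM libraries were low. The ratio of CM KO to ESC KO was 0.109 (95% interval 0.0851 to 0.138), and that of CM WT to ESC WT was 0.073 (0.0548 to 0.0958), so the level was 9.2-fold lower in CM KO and 13.7-fold lower in CM WT than in the matching ESCs. These intervals are Clopper-Pearson intervals on estimated reads, cover counting error only and compare libraries rather than conditions. With 1 library per group, no comparison of chromatin RNA has a replicate check and none has a test.

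Dppa4 (ENSMUSG00000058550, chr16:48283735-48294292), the partner gene, lies 15982 bp from Dppa2, and the annotation has no other coding gene nearer to either. It was at 0.730 RPKM in CM KO, 0.547 in CM WT, 4.11 in ESC KO and 5.37 in ESC WT, in the same order of cell types as Dppa2. Its ratio was 0.178 (0.154 to 0.205) for CM KO over ESC KO and 0.102 (0.0867 to 0.12) for CM WT over ESC WT. KO and WT intervals excluded 1 in both cell types but on opposite sides. The ratio of CM KO to CM WT was 1.33 (1.09 to 1.64), and that of ESC KO to ESC WT was 0.766 (0.71 to 0.826). On log2(RPKM + 1) the CM difference was 0.16, close to the median of 0.13 over all genes, and it was 0.03 with libraries scaled to a median log2 ratio of 0. The ESC difference was -0.32, and -0.22 when scaled. For Dppa2 the same ratios were 1.37 (0.96 to 1.96) in CM and 0.917 (0.825 to 1.02) in ESC, and both intervals include 1. On the log2(RPKM + 1) scale Dppa2 differed by 0.09 in CM and by -0.09 in ESC. With libraries scaled to a median log2 ratio of 0 these differences were -0.04 and 0.00, so no direction is given for Dppa2 between KO and WT.

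Genes of the early-embryo programme that DPPA2 and DPPA4 are known to switch on in mouse ESCs had little listed RNA on chromatin. Of 14 such genes, 3 were listed in any library and 0 reached 1 RPKM. Many of them have near-identical copies, so a gene that is not listed is not shown to be silent. Zscan4d, a marker of that state, was at 0.0139 RPKM in CM KO, 0.0283 in CM WT and 0.0666 in ESC KO, and it was not listed in ESC WT.

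Dppa3 (ENSMUSG00000046323, chr6:122626424-122630271) was at 0.269 RPKM in CM KO, was not listed in CM WT, and was at 0.378 RPKM in ESC KO and 0.148 RPKM in ESC WT. These values rest on about 31 reads in CM KO, 41 in ESC KO and 16 in ESC WT. For CM WT a floor of 3 reads, 0.0265 RPKM, stands in for the count of 0. The upper limit of the two-sided exact Poisson interval, as used for the intervals of single levels, is 0.0326 RPKM. Both KO libraries were above the WT library of their cell type. With the measured levels set against the 3-read floor, Dppa3 was at least 10.1-fold higher in CM KO than in CM WT, and in CM WT it was at least 5.58-fold lower than in ESC WT. These bounds leave out the counting error of the measured levels, whose intervals were 0.184 to 0.384 RPKM in CM KO and 0.0851 to 0.242 RPKM in ESC WT. The ratio of ESC KO to ESC WT was 2.55 (1.4 to 4.87), and that of CM KO to ESC KO was 0.712 (0.432 to 1.16), an interval that includes 1. Dppa3 was under 1 RPKM in all 4 libraries and so entered no count of genes past 2-fold. A pseudogene, Dppa3-ps, is annotated but not listed in the chromatin RNA files, and reads could be shared with it.

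DNA methylation genes tied to DPPA3 by known biology were read beside it. Uhrf1, whose product DPPA3 holds back, was at 1.72 RPKM in CM KO, 1.77 in CM WT, 2.16 in ESC KO and 2.86 in ESC WT, and no comparison reached 2-fold. On log2(RPKM + 1), 2 of 6 such genes in the filter were at least 2-fold lower in CM KO than in ESC KO. In CM WT over ESC WT it was 3 of 6, and 0 were at least 2-fold higher in either comparison. The list's median log2 ratios were -0.46 and -0.88, beside -0.04 and -0.25 over all genes in the filter. The demethylase genes Tet1 and Tet2 were in both counts. Tet3, also a demethylase gene, was under 1 RPKM and outside the filter, and it was higher in CM. It was at 0.714 RPKM in CM KO, 0.754 in CM WT, 0.125 in ESC KO and 0.114 in ESC WT. Within the filter Dnmt3b was higher in CM, short of 2-fold on log2(RPKM + 1), at 0.59 in CM KO over ESC KO and 0.39 in CM WT over ESC WT. Its plain RPKM ratios were 2.05 and 1.46. Dnmt3l was 3.06-fold lower in CM KO than in ESC KO as a plain ratio and short of 2-fold on log2(RPKM + 1). Tet1 was at 1.70 RPKM in CM KO, 1.45 in CM WT, 8.72 in ESC KO and 11.8 in ESC WT. Between KO and WT, 0 of 5 genes in CM and 0 of 6 in ESC passed 2-fold on log2(RPKM + 1) in either direction. As a plain ratio Dnmt3b was 2.27-fold lower in ESC KO than in ESC WT.

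Dppa5a (ENSMUSG00000060461, chr9:78367052-78368199), the RNA-binding member, had the highest RPKM of the set in each library except CM WT, where L1td1 and Utf1 were higher. It was at 3.24 RPKM in CM KO, 1.27 in CM WT, 12.4 in ESC KO and 11 in ESC WT. The ESC libraries were high, and the CM KO library lay between them and the CM WT library. Its ratio was 0.262 (0.211 to 0.325) for CM KO over ESC KO and 0.115 (0.0825 to 0.16) for CM WT over ESC WT. CM KO exceeded CM WT by 2.56-fold (1.77 to 3.71), from about 111 reads in CM KO and 43 in CM WT, while ESC KO over ESC WT was 1.13 (0.972 to 1.3). The log2 ratio of CM KO over CM WT was 0.90 on RPKM + 1 and so short of the 2-fold threshold. With a pseudocount of 0.1 it was 1.29 and past the threshold. Summed ESC markers were also higher in CM KO than in CM WT, as given above, and their part in this difference was not tested. Copies named Dppa5b and Dppa5c are annotated but are not listed in the chromatin RNA files, so reads shared with them would make the Dppa5a level uncertain.

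Ooep, which encodes a relative of DPPA5A needed in the oocyte, is the nearest coding gene to Dppa5a, at 8704 bp. It was at 0.563 RPKM in CM KO, 0.312 in CM WT, 3.66 in ESC KO and 2.53 in ESC WT. Like Dppa5a it was at least 2-fold lower in CM than in ESC with either genotype. The related gene Khdc3 was not listed in either CM library and was at 0.287 RPKM in ESC KO and 0.659 RPKM in ESC WT.

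Utf1 (ENSMUSG00000047751, chr7:139943856-139945112) had, of the 5 genes in the filter, the least difference between CM KO and ESC KO and the widest between ESC KO and ESC WT. It was at 1.75 RPKM in CM KO, 1.28 in CM WT, 2.74 in ESC KO and 5.08 in ESC WT. ESC WT stood above the other 3 libraries. The ratio of CM KO to ESC KO was 0.637 (0.453 to 0.872) and that of CM WT to ESC WT was 0.253 (0.178 to 0.348). ESC KO was at 0.54 of ESC WT (0.419 to 0.698), a log2 ratio of -0.70, and 1.53% of the 5240 genes in that filter lay lower. The ratio of CM KO to CM WT was 1.36 (0.922 to 2.03), which includes 1. Polycomb and decapping genes and Myc were read as genes linked to UTF1. Of the 7 in the filter, 0 were past 2-fold on log2(RPKM + 1) in CM KO over ESC KO, where 3.67% of all genes were lower. As plain RPKM ratios there, Jarid2 was 2.21-fold lower and Myc 2.76-fold higher. In CM WT over ESC WT 2 were lower, the Polycomb genes Eed and Jarid2, where 6.50% of all genes were. The Polycomb genes Suz12 at -0.83 and Ezh2 at -0.39 did not pass 2-fold there on log2(RPKM + 1). As a plain RPKM ratio Suz12 was 2.09-fold lower in CM WT than in ESC WT. The list's medians were -0.23 in CM KO over ESC KO and -0.55 in CM WT over ESC WT, beside -0.04 and -0.25 over all genes in the filter.

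L1td1 (ENSMUSG00000087166, chr4:98726754-98738486), derived from a transposon, was at 1.74 RPKM in CM KO, 2 in CM WT, 7.85 in ESC KO and 9.90 in ESC WT. The ESC libraries were again high and the CM libraries low. It has the most reads of the set, about 608 in CM KO, 690 in CM WT, 2586 in ESC KO and 3243 in ESC WT, and therefore the narrowest intervals. Its ratio was 0.221 (0.202 to 0.242) for CM KO over ESC KO and 0.202 (0.186 to 0.22) for CM WT over ESC WT. KO was lower than WT in both cell types, with ratios of 0.869 (0.778 to 0.97) in CM and 0.794 (0.753 to 0.836) in ESC. These departures from 1 exceed counting error but lie within the bulk of other genes: 13.8% of genes had a lower log2 ratio in CM and 14.7% in ESC.

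Among genes that reached 1 RPKM in 1 library or both, 4 of 5 genes of the set were at least 2-fold lower on log2(RPKM + 1) in CM KO than in ESC KO, where 3.67% of 5558 genes were, and 0 were at least 2-fold higher, where 5% of genes were. In CM WT against ESC WT it was 5 of 5, where 6.50% of 5865 genes were at least 2-fold lower and 4.60% higher. The median log2 ratio of the set was -1.56 in CM KO over ESC KO and -1.86 in CM WT over ESC WT, beside -0.04 and -0.25 over all genes. Dppa3 was outside both counts. Between genotypes 0 of 3 genes were past 2-fold in CM KO over CM WT, where 2.11% of 5170 genes were higher and 1.37% lower. For ESC KO over ESC WT it was 0 of 5, where 1.49% of 5240 genes were higher and 0.649% lower. Medians of the set were 0.27 in CM and -0.30 in ESC, beside 0.13 and -0.09 over all genes.

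**Figure D2:**
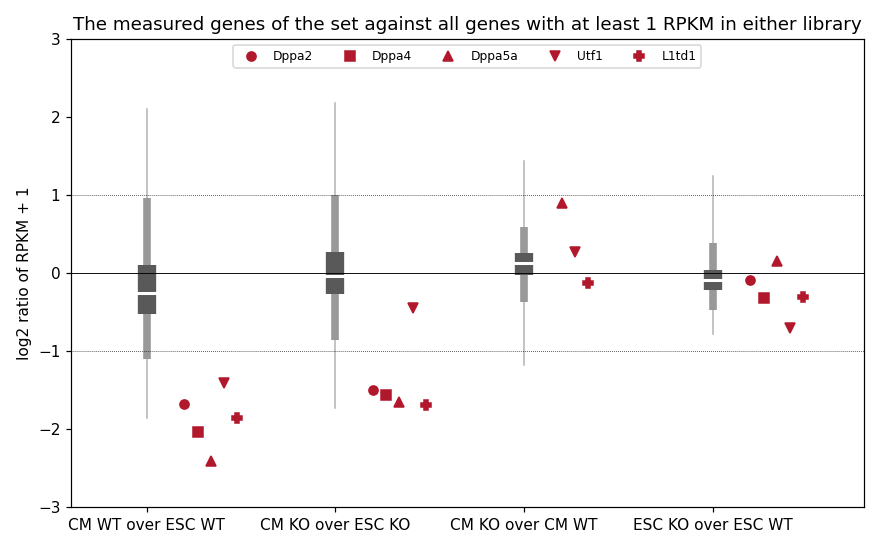
Log2 ratio of RPKM + 1 for the genes of the set in the filter (symbols) beside all genes that reached 1 RPKM in 1 library or both (dark bar, middle 50%; pale bar, 5th to 95th percentile; thin line, 1st to 99th; white line, median) in 4 comparisons; dotted lines mark 2-fold. Symbols other than that of Utf1 in CM KO over ESC KO lie under the lower dotted line in the CM over ESC comparisons, and none passes a dotted line in the KO over WT comparisons.

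Other pluripotency factors, a list of 18 genes, were mostly lower in CM as well. On log2(RPKM + 1), 10 of 16 in the filter were at least 2-fold lower in CM KO than in ESC KO, with a median of -1.25. In CM WT over ESC WT it was 11 of 15, with a median of -1.53. Over all genes in the filter, 3.67% and 6.50% were at least 2-fold lower, with medians of -0.04 and -0.25. Between genotypes 0 of 10 in CM and 0 of 16 in ESC were past 2-fold on log2(RPKM + 1), with medians of 0.47 and 0.05. As plain RPKM ratios, Zfp42, Gdf3 and Nanog were 2.41-fold, 2.28-fold and 2.09-fold higher in CM KO than in CM WT. Of the 10 in CM, 2 were lower in CM KO. Nanog, a core factor, was at 1.76 RPKM in CM KO, 0.842 in CM WT, 7.17 in ESC KO and 5.89 in ESC WT. Of 12 germline genes, 1 of 4 in the filter was at least 2-fold lower on log2(RPKM + 1) in CM KO than in ESC KO. In CM WT over ESC WT it was 1 of 3. The medians were -0.60 and -0.61, to be read beside the shares and medians over all genes just given. The gene counted as lower was Tex19.1 in both comparisons, a gene that restrains retrotransposons in germ cells. It was at 0.662 RPKM in CM KO, 0.265 in CM WT, 2.52 in ESC KO and 1.81 in ESC WT.

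Profiles over the 4 libraries were also matched by the Euclidean distance of mean-centred log2(RPKM + 1) over 5285 protein-coding genes with at least 1 RPKM in any library. Nearest to Dppa2 was Pou5f1, the OCT4 gene, at a distance of 0.15. Nearest to Dppa4 were Zfp57, an imprinting regulator, at 0.05 and Jam2, an adhesion gene, at 0.06. Dppa5a lay nearest to Zfp42, the REX1 gene, at 0.26 and to Fgf4, a growth factor gene of ESCs, at 0.28. Utf1 lay nearest to Zfp808 at 0.06 and Ccne1, a cyclin gene, at 0.10. L1td1 lay nearest to Slc7a3, an arginine transporter gene, at 0.14, and Dppa4 was the next at 0.21. The profile of Dppa3 is nearly flat on this scale, and its nearest gene was Luc7l2 at 0.02. With 4 libraries many genes share such an order, so these names describe likeness in these libraries alone.

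Open chromatin was compared through intervals that the authors called in each ATAC-seq library. A library held 73177 ± 3128 intervals in CM KO, 88791 ± 5064 in CM WT, 114635 ± 2404 in ESC KO and 112503 ± 6215 in ESC WT (SD, n = 3 each). Merging the intervals of all 12 libraries gave 193427 regions, of which 27 touch the 6 genes or the 2 kb on either side. Of the 27 regions, 10 (37.0%) were called in all 12 libraries, beside 21.1% of all regions. These 10 were the 4 regions of Dppa5a, the 2 of Utf1, 3 of the 8 of L1td1 and 1 of the 5 of Dppa3. No region of Dppa2 or Dppa4 was called in all 12. The annotation used has no strand, so gene ends are named by coordinate.

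**Figure D3:**
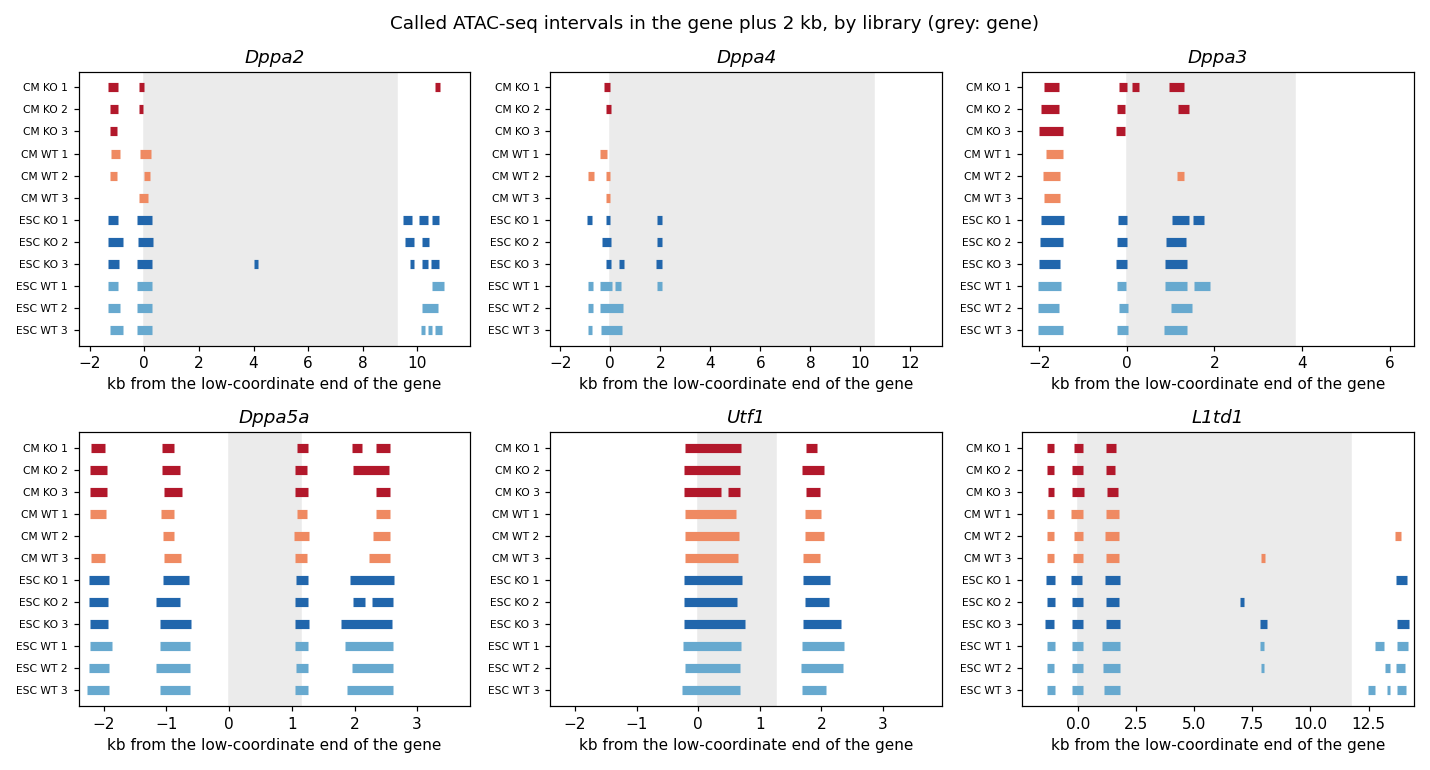
Called ATAC-seq intervals (bars) in each of the 12 libraries, by distance in kb from the low-coordinate end of each gene; grey shading is the gene and rows run from CM KO to ESC WT. The interval at the low-coordinate end of Dppa3 is present in 3 CM KO, 3 ESC KO and 3 ESC WT libraries and absent from the 3 CM WT libraries, while the intervals of Utf1 are in every library.

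The region at the low-coordinate end of Dppa3, chr6:122626166-122626457, is 292 bp long and reaches from -258 to 33 bp relative to that end, the gene being on the positive side. It was called in 3 of 3 CM KO libraries, 0 of 3 CM WT libraries, 3 of 3 ESC KO libraries and 3 of 3 ESC WT libraries. Its −log10 q, the authors' value for a called interval, ran from 5.94 to 8.19 in CM KO, 5.86 to 10.1 in ESC KO and 6.67 to 7.72 in ESC WT. Of the 27 regions, this was the only 1 called in every library of the other groups and in no CM WT library. It counted as closed in CM WT over ESC WT and as opened in CM KO over CM WT. Of the 74602 regions called in 3 of 3 libraries of both ESC groups, 13730 (18.4%) were called in 0 CM WT libraries, and 986 of those (7.18%) were called in all 3 CM KO libraries. The CM KO libraries held fewer intervals than the CM WT libraries. With every library held to an equal number of its intervals, the region was called in 3 CM KO, 0 CM WT, 2 ESC KO and 2 ESC WT libraries.

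Among the other Dppa3 regions, that between -2036 and -1444 bp from the same end, chr6:122624388-122624980, was called in all 12 libraries, and 1 inside the gene, chr6:122627273-122627917, in 2 CM KO, 1 CM WT, 3 ESC KO and 3 ESC WT libraries. The share of the gene and its 2 kb sides inside called intervals was 13.1%, 10.6% and 9.48% in the CM KO libraries, 4.97%, 6.88% and 4.59% in CM WT, 17.7%, 15.6% and 16.0% in ESC KO, and 20.0%, 14.4% and 16.8% in ESC WT. CM KO lay between CM WT and ESC KO with no overlap on either side. The mean was 11.1% ± 1.83 in CM KO and 5.48% ± 1.23 in CM WT (SD, n = 3 each), a difference of 5.58 points. The two-sided, exact permutation p was 0.1, the smallest that 3 libraries against 3 allow, and 0.313 after Benjamini-Hochberg adjustment over 17551 genes. Of those genes, 2.99% had more covered bases in every CM KO library than in any CM WT library, and 28.9% had fewer. The number of Dppa3 intervals was 4, 3 and 2 in CM KO and 1, 2 and 1 in CM WT, groups that overlap (exact permutation p = 0.2).

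**Figure D4:**
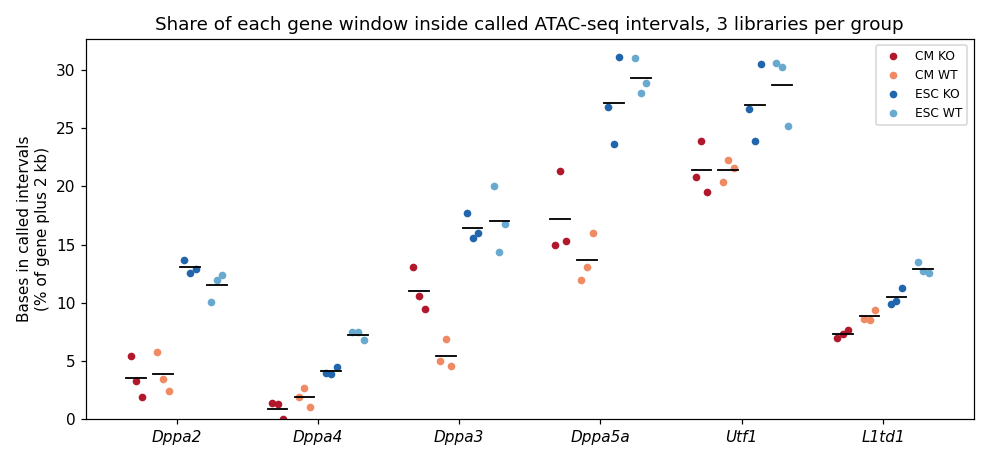
Share of each gene plus 2 kb inside called ATAC-seq intervals (%), by library; points are libraries and black lines are means of 3. For Dppa3 the CM KO points lie between 9.48% and 13.1%, above the CM WT points (4.59% to 6.88%), while for Utf1 both CM groups have a mean of 21.4%.

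Dppa2 carried regions that were called mainly in ESCs beyond its high-coordinate end. Region chr16:48320339-48321253 was called in 1 CM KO, 0 CM WT, 3 ESC KO and 3 ESC WT libraries, and region chr16:48319751-48320159 in 0 CM KO, 0 CM WT, 3 ESC KO and 0 ESC WT libraries. The second had a −log10 q of 2.91 to 4.31, and it was not called opened in ESC KO over ESC WT when −log10 q had to reach 5. At the low-coordinate end, region chr16:48309999-48310581 was called in 2 CM KO, 3 CM WT, 3 ESC KO and 3 ESC WT libraries. The covered share was 3.56% ± 1.80 in CM KO, 3.90% ± 1.68 in CM WT, 13.1% ± 0.559 in ESC KO and 11.5% ± 1.22 in ESC WT (SD, n = 3 each). It was lower in every CM library than in any ESC library of the same genotype, as it was for 68.6% of 17768 genes in CM KO over ESC KO and 51.5% of 17888 genes in CM WT over ESC WT. The reverse held for 0.737% and 5.51% of genes. Every ESC KO library also had a larger covered share than any ESC WT library (exact permutation p = 0.1, adjusted 0.474 over 17824 genes), as for 9.18% of genes.

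Dppa4 had the least covered share of the set. It was 1.45%, 1.31% and 0% in the CM KO libraries, 1.90%, 2.73% and 1.04% in CM WT, 4.01%, 3.88% and 4.46% in ESC KO, and 7.50%, 7.47% and 6.83% in ESC WT. ESC KO lay below ESC WT without overlap (mean 4.12% ± 0.303 against 7.27% ± 0.377, SD, n = 3 each; exact permutation p = 0.1, adjusted 0.474 over 17824 genes). In that comparison 11.9% of genes had fewer covered bases in every ESC KO library and 9.18% had more. The region at its low-coordinate end, chr16:48283306-48284273, was called in 2 CM KO, 3 CM WT, 3 ESC KO and 3 ESC WT libraries. The region chr16:48285572-48285811, inside the gene, was called in 0 CM KO, 0 CM WT, 3 ESC KO and 1 ESC WT libraries.

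Dppa5a and Utf1 kept all their regions in every group. The 4 regions of Dppa5a were called in all 12 libraries, 1 of them at chr9:78368094-78368319 across the high-coordinate end of the gene. Its covered share was 17.2% ± 3.55 in CM KO, 13.7% ± 2.09 in CM WT, 27.2% ± 3.75 in ESC KO and 29.3% ± 1.55 in ESC WT (SD, n = 3 each). It was lower in each CM library than in any ESC library of the same genotype. Most genes did the same, 68.6% of 17768 in CM KO over ESC KO and 51.5% of 17888 in CM WT over ESC WT. Both regions of Utf1, chr7:139943601-139944616 over the start and chr7:139945520-139946224 beyond the far end, were called in all 12 libraries. Its covered share was 20.8%, 23.9% and 19.5% in the CM KO libraries and 26.6%, 23.9% and 30.5% in ESC KO. These groups met only in a tie at 23.9% (exact permutation p = 0.2, 0.256 after adjustment over 17768 genes). In the other genes of the set CM KO lay below ESC KO without a tie. Of the 5 genes in the filter, Utf1 had the chromatin RNA closest between CM KO and ESC KO.

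L1td1 had 3 regions in all 12 libraries, 1 of them over the gene start at chr4:98726452-98727003. A region past the far end, chr4:98740398-98741006, was called in 1 CM KO, 1 CM WT, 3 ESC KO and 3 ESC WT libraries. L1td1 had 4, 4 and 5 intervals in ESC KO and 6, 6 and 6 in ESC WT, and its covered share was 10.4% ± 0.732 in ESC KO and 12.9% ± 0.516 in ESC WT (SD, n = 3 each). Neither measure overlapped (exact permutation p = 0.1 each, adjusted 1 for intervals and 0.474 for the covered share). Of 17824 genes, 2.95% had fewer intervals in every ESC KO library and 3.73% had more. Between the CM groups the covered share was 7.34% ± 0.372 in CM KO and 8.84% ± 0.489 in CM WT (SD, n = 3 each), also without overlap (exact permutation p = 0.1, adjusted 0.313), as for 28.9% of genes.

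Regions over the starts of Utf1 and L1td1 were called in all 12 libraries while their chromatin RNA differed between cell types. Dppa5a, too, had a region across a gene end in all 12 libraries and less chromatin RNA in CM. The Utf1 and L1td1 promoters are shown because, within the set, only their sequences were available. Each runs 5′ to 3′ on the plus strand from 250 bases before the RefSeq start to 50 after it (GRCm38.p6), and capitals mark the letters GGGCGG, the core of the GC box.
Utf1 promoter, chr7:139943606-139943905: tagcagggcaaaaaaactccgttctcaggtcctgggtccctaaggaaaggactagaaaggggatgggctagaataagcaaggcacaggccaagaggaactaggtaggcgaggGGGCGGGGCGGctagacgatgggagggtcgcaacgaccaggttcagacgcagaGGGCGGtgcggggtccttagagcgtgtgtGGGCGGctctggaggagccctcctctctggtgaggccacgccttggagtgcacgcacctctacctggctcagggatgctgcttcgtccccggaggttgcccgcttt
L1td1 promoter, chr4:98726504-98726803: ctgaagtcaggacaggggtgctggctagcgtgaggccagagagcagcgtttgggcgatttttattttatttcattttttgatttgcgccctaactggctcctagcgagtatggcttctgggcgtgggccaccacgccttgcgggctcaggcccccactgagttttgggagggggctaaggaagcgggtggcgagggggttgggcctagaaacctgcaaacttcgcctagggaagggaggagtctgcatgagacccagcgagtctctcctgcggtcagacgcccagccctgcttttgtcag
The Utf1 promoter holds 4 copies of GGGCGG on the printed strand, overlaps counted, and 0 on the other, while the L1td1 promoter holds 0 on either. At least 1 copy on either strand is in 35.6% of 32817 RefSeq promoters of this length, and at least 3 copies are in 10.7%. Utf1 has 17 CpG and 62.0% GC, and L1td1 has 14 CpG and 58.7% GC, beside medians of 7 CpG and 52.7% GC over all promoters. Fewer CpG than in Utf1 were found in 68.6% of all promoters, and fewer than in L1td1 in 63.7%, so neither count is unusual. The octamer ATGCAAAT, the TATA letters TATAAA and the E-box CACGTG were found in neither window on either strand; 1.74%, 13.6% and 7.15% of all promoters hold them. Promoter sequences of the Dppa genes were not available here.

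Counted as regions, 2 of the 27 were closed in CM KO over ESC KO (called in 0 of 3 against 3 of 3 libraries), beside 9.74% of all regions, and 0 were opened, beside 0.948%. In CM WT over ESC WT 2 were closed, beside 11.5%, and 0 opened, beside 5.83%. These counts of closed regions are near the background shares. In CM KO over CM WT 1 was opened, beside 0.754%, and 0 were closed, beside 3.74%. In ESC KO over ESC WT 1 was opened, beside 1.25%, and 0 were closed, beside 1.37%. The number closed in CM WT over ESC WT was 5 without CM WT replicate 2 and 3 without ESC WT replicate 1 or ESC WT replicate 2. Counts of intervals per gene were fewer without overlap for Dppa2, Dppa4 and L1td1 in CM KO over ESC KO, where 32.5% of 17768 genes had fewer and 0.681% more, and for Dppa2, Dppa3 and L1td1 in CM WT over ESC WT, where 24.8% of 17888 had fewer and 4.35% more. The CM and ESC libraries differ in total intervals. When each library was held to the same number of intervals, 0 regions were closed in CM KO over ESC KO and 1 in CM WT over ESC WT. The counts of intervals per gene were not recomputed that way.

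Positions of m6A were listed for each library as an offset from the start of a gene with the 4 letters at that position. The lists held 13962 positions in CM KO, 25617 in CM WT, 18076 in ESC KO and 16983 in ESC WT. The 6 genes had 2 positions in CM KO, 9 in CM WT, 27 in ESC KO and 22 in ESC WT, 33 distinct positions in all. Of these, 19 lay beyond 75% of the gene length from its start: 11 in L1td1, 4 in Dppa4, 2 in Dppa2, 2 in Utf1 and 0 in Dppa3 and Dppa5a. The share over all listed positions is not given here, so this is not shown to be a trait of the set. All 6 genes had a position in ESC KO and 5 in ESC WT, against 1 gene in CM KO and 2 in CM WT. Genes with a position made up 25.1% of the genes listed in chromatin RNA in CM KO, 38.4% in CM WT, 28.8% in ESC KO and 29.1% in ESC WT. A position needs enough RNA to be listed, and the RPKM of these genes was also lower in CM. A position listed in a KO library is the authors' call, and its caller is likewise not given in the sources used here.

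**Figure D5:**
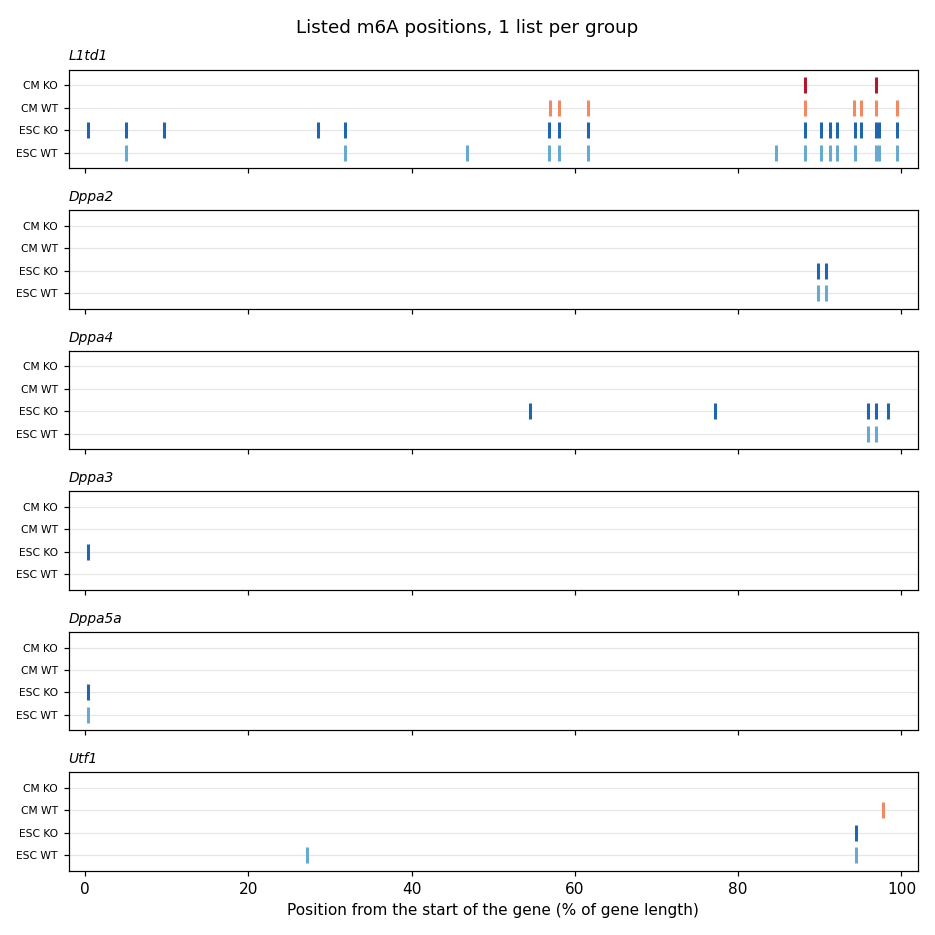
Listed m6A positions of each gene (ticks) along the gene, as a percentage of gene length from its start, in the 1 list of each group. Ticks gather toward the right end for L1td1, Dppa2 and Dppa4, the ESC rows carry most of them, and the CM KO row has 2, both in L1td1.

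L1td1, the longest and most read gene of the set, carried most of the positions: 2 in CM KO, 8 in CM WT, 17 in ESC KO and 15 in ESC WT. The median gene on each list had 2. L1td1 had more positions than 46.7% of listed genes in CM KO, 91.0% in CM WT, 97.9% in ESC KO and 97.8% in ESC WT. Its 2 positions common to all 4 lists were at offset 10353, with the letters GGAC, and at offset 11367, with GAAC, out of a gene length of 11733. Per kilobase of gene it had 0.17 positions in CM KO, 0.682 in CM WT, 1.45 in ESC KO and 1.28 in ESC WT, while its chromatin RNA in CM KO and CM WT differed by the ratio of 0.869 given above.

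Dppa2 had the same 2 positions in ESC KO and ESC WT, at offsets 8297 and 8378 of 9240, and none in CM. Dppa4 had 5 positions in ESC KO and 2 in ESC WT. The 2 shared ones, at offsets 10127 and 10230 of 10558, read GAAC, and those at 5749, 8153 and 10384 were in ESC KO alone. Dppa3 had 1 position, offset 16 in ESC KO, and Dppa5a had 1, offset 4 in both ESC lists. Utf1 had 0 positions in CM KO, 1 in CM WT, 1 in ESC KO and 2 in ESC WT. The ESC lists shared offset 1186 of 1257, a GGAC, and the CM WT position at 1229 was on no other list.

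Between ESC KO and ESC WT, 19 positions of the set were shared, 8 were in ESC KO alone and 3 in ESC WT alone, so 70.4% of the ESC KO and 86.4% of the ESC WT positions were common. Over the whole lists the shares were 50.7% of ESC KO and 53.9% of ESC WT positions. By gene, 1 of the 6, Dppa3, had a position in ESC KO and none in ESC WT, as did 11.1% of 6038 genes on either list. Between CM KO and CM WT, 2 positions were shared, 0 were in CM KO alone and 7 in CM WT alone. The CM KO list had 0.545 times as many positions as the CM WT list. Utf1 was on the CM WT list and not on the CM KO list, as were 35.4% of 7687 genes, and the reverse held for 0 genes of the set and 1.50% of all. Dppa2, Dppa3, Dppa4, Dppa5a and Utf1 were on the ESC KO list and not on the CM KO list, as were 21.8% of 6349 genes. Dppa2, Dppa4 and Dppa5a were on the ESC WT list and not on the CM WT list, as were 5.72% of 8031 genes.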

How the data were processed

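The deposited ChrRNA-seq files give 1 RPKM per gene, as the authors named it; 99.54% to 99.62% of identifiers matched a symbol. The tools in the submitters' processing notes are cutadapt, Bowtie, Picard, MACS2 and HISAT2, without role or version, and the build is mm10. Reads were estimated from the steps between low RPKM values; 54.1% to 56.2% of values of 1 to 10 reads came within 0.05 of a whole number, so reads and their intervals are approximate. Intervals for every gene and covered bases were added after seeing the data. Log2 ratios used RPKM + 1, which understates changes of low genes.

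The deposited ATAC-seq lists, made per library, hold a score, a fold (ratio), −log10 p and −log10 q, with a lowest −log10 q of 1.30 and no read depth. Intervals sharing 1 bp were merged into regions. Permutation tests were exact and two-sided, with Benjamini-Hochberg adjustment over all genes. Separate cultures are not stated, so p-values measure the spread between libraries, which may be technical. The molecule label of CM KO replicate 3 reads RNA, but its file is a peak list. Repeated m6A rows were counted as 1. Offsets count from 0: of 403 positions inside promoter sequences, the stated letters were at the offset for 46.4% and at a neighbouring one for at most 1.99%.

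Genes and sequences are from RefSeq GRCm38.p6, the assembly behind mm10. Named genes were the 6 genes, the 3 most alike for each, and genes of the lists. Members and lists were chosen with earlier results of these data known. Scripts (Python 3.11.15, NumPy 2.4.6, pandas 2.3.3, SciPy 1.17.1) were tested on simulated data.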

Additional observations from a re-analysis of the deposited data

Results flagged for a closer look

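For 3 genes the KO library lay above WT in CM and below WT in ESC in chromatin RNA. The log2 ratio of KO over WT in CM minus that in ESC was 0.18 for Dppa2, 0.48 for Dppa4 and 0.97 for Utf1. With 1 library per group these differences between cell types were not tested, and the values of Dppa2 did not keep their direction when libraries were scaled to a median log2 ratio of 0. So scaled, KO over WT was 0.03 in CM and -0.22 in ESC for Dppa4, and 0.14 in CM and -0.61 in ESC for Utf1.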

How the results depend on the processing

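Of the recomputed counts, 120 stayed within 1.5 times the reported count and 16 did not. Most of those that stayed were counts of 0 that remained 0, so this tally says little about robustness. A count also has no direction to reverse. With a pseudocount of 0.1, 1 gene (Dppa5a) was at least 2-fold higher in CM KO than in CM WT. Regions closed in CM WT over ESC WT (2) numbered 1 with equal numbers of intervals per library, 4 at −log10 q of at least 5, 1 in the gene body only, 7 within 10 kb, and 2 to 5 leaving out 1 library. Regions closed in CM KO over ESC KO (2) numbered 0, 1 and 6 with equal numbers, the gene body only and 10 kb, and 2 to 3 leaving out 1 library. Regions opened in ESC KO over ESC WT (1) numbered 0 with equal numbers, at −log10 q of at least 5 and in the gene body only, and 1 to 2 leaving out 1 library (2 without ESC WT replicate 1). Regions closed there (0) numbered 0 to 1 (1 without ESC KO replicate 1, ESC WT replicate 1 or ESC WT replicate 2). The cause was not tested. Scaling libraries to a median log2 ratio of 0 gave Dppa3 0.05 in CM WT over ESC WT. The region opened at Dppa3 in CM KO over CM WT kept its call with equal numbers of intervals, at −log10 q of at least 5 and with 50% overlap. Leaving out 1 library could not remove that call, as the region was called in 3 of 3 CM KO and 0 of 3 CM WT libraries. Same-numbered ATAC-seq libraries correlated between -0.010 and 0.005 in their deviations from group means, values too small to show a pairing by number. In ESC KO with ESC WT they were 0.004, 0.004 and 0.002, each above the highest for unlike numbers, 0.001. With a replicate block, a sign-flip test of 3 pairs has a smallest p of 0.25; Dppa3 intervals gave 1.67 in CM KO minus CM WT with p = 0.25 by the exact test. Of 6 libraries, 1 correlated best with its own number in CM WT with ESC WT, 2 in CM KO with ESC KO, 0 in CM KO with CM WT and 3 in ESC KO with ESC WT. An upper share of m6A positions by score was not run, since the lists give no score. Chromatin RNA and m6A have 1 library per group, and ATAC-seq depth is unknown, so an interval that is not called is not shown to be closed.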
